A study of Mus musculus with 10 samples.

Results

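The nuclear pore and nuclear transport receptor genes described here were the rows of the deposited expression table named Nup followed by a digit, Kpna, Kpnb, Ipo followed by a digit, Xpo, Tnpo, Ranbp or Rangap, together with Ran, Cse1l and Tpr. The rule used names only and found 51 of the 6147 genes in the table. All 51 had a mean of at least 1 TPM over the libraries and were tested. RNA came from frozen neocortex of wild-type CD1 mice, an outbred stock, at 4 embryonic stages named by embryonic day (E12.5, E14, E15.5 and E17) and on the day of birth (P0). There were 2 libraries per stage, 10 in all, described by the submitters as biological duplicates, with no other genotype or treatment. The labels do not give litter, sex, pooling or batch, so p-values measure the spread between these libraries.

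The nuclear pore complex is the channel through which proteins and RNA pass between nucleus and cytoplasm. It is built from copies of nucleoporins arranged in scaffold rings, a central channel lined with disordered repeats, filaments on the cytoplasmic face and a basket on the nuclear face. Importins carry cargo inward and exportins carry cargo outward, and the small GTPase Ran, bound to GTP in the nucleus and to GDP in the cytoplasm, sets the direction. In the developing neocortex, dividing progenitors, which take the nuclear envelope apart and rebuild it at each mitosis, give way over these days to neurons that no longer divide.

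Values are in TPM, a unit of transcript abundance: read counts corrected for gene length and scaled to a fixed total per library. They keep no read depth, so the depth behind each value is unknown. Listed genes held 68.9% to 71.7% of the TPM total in each library. How the 6147 listed genes were chosen was not given in the sources used here. Shares of all genes below are therefore shares of this list, not of all genes of the mouse. The 2 libraries of a stage differed most at E17, where the SD of the difference between replicates over all genes was 0.28 on the log2(TPM + 1) scale, against 0.088 to 0.18 at the other stages. At E17, replicate 1 was above replicate 2 for 40 of 51 pore and transport genes and for 72% of all genes tested. Over all genes tested, the E17 difference (replicate 1 minus replicate 2) had Spearman correlations of 0.44 with exon length and 0.37 with GC content. Over the 51 genes they were 0.36 and 0.43. Whether length or GC content accounts for the difference was not tested. Genes of DNA replication and mitosis fell between E12.5 and P0. All 21 of these tested were lower at P0, and their summed level went from 2750 and 2834 TPM at E12.5 to 267 and 278 TPM at P0. All 19 tested genes of neuronal maturation were higher at P0, with sums of 841 and 854 TPM at E12.5 and 4638 and 4593 TPM at P0. The markers of other cell types included erythroid genes (3 of 8 listed). Their sums were 4323 and 4494 TPM at E12.5 and 2.49 and 2.04 TPM at P0. Of these, the globin gene Hbb-y alone read 4268 and 4429 TPM at E12.5, and the globin gene Hbb-bh1 stood at 0 at P0. Meningeal genes (5 of 6) went from 173 and 173 TPM to 2.57 and 2.22 TPM, and choroid plexus genes (2 of 6) from 452 and 303 TPM to 4.57 and 3.07 TPM. Glial genes (5 of 9) went from 83.7 and 89.0 TPM to 162 and 162 TPM. The vascular gene Cdh5 went from 13.9 and 15.3 TPM to 1.28 and 1.02 TPM, and the microglial gene C1qb from 7.96 and 8.23 TPM to 7.81 and 7.07 TPM. The part of any of these in the changes below was not tested.

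The pore and transport genes together lost about as much of their summed level as they kept. Their sum was 4692 ± 3.32 TPM (SD, n = 2) at E12.5. It then went to 3855 ± 42.0 TPM at E14, to 2867 ± 14.3 TPM at E15.5, to 2508 ± 130 TPM at E17 and to 2268 ± 116 TPM at P0. The P0 sum was 48.3% of the E12.5 sum. Both libraries of each stage lay below both libraries of the stage before, and the smallest gap was that between P0 (2186 and 2350 TPM) and E17 (2600 and 2416 TPM). In bulk tissue, fewer cells of a type and less RNA per cell cannot be told apart.

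Between E12.5 and P0, 43 of the 51 genes fell and 1, Ipo4, rose, at an adjusted p under 0.05 (limma moderated test on log2(TPM + 1), Benjamini-Hochberg over 6048 genes). Over all genes tested, 51% were called lower and 27.1% higher, 78.2% in either direction. The median change of the pore and transport genes was -1.08 on the log2 scale, against -0.27 for all genes tested. The 2 P0 libraries were both under the E12.5 pair for 45 of the 51 genes, as they were for 58.4% of all genes, and both over it for 1 gene, against 32.5% of all. The mean at P0 was under 50% of the mean at E12.5 for 26 of the 51 genes, against 21.4% of all genes. The highest stage mean was at E12.5 for 46 of 51, against 47.9% of all genes. Rescaling libraries by the median of gene ratios moved the median of all genes from -0.27 to -0.01. With that scaling 37 members were called lower and 4 higher, and the members' median was -0.81. Of all genes, 75.6% were then called in either direction.

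**Figure D1:**
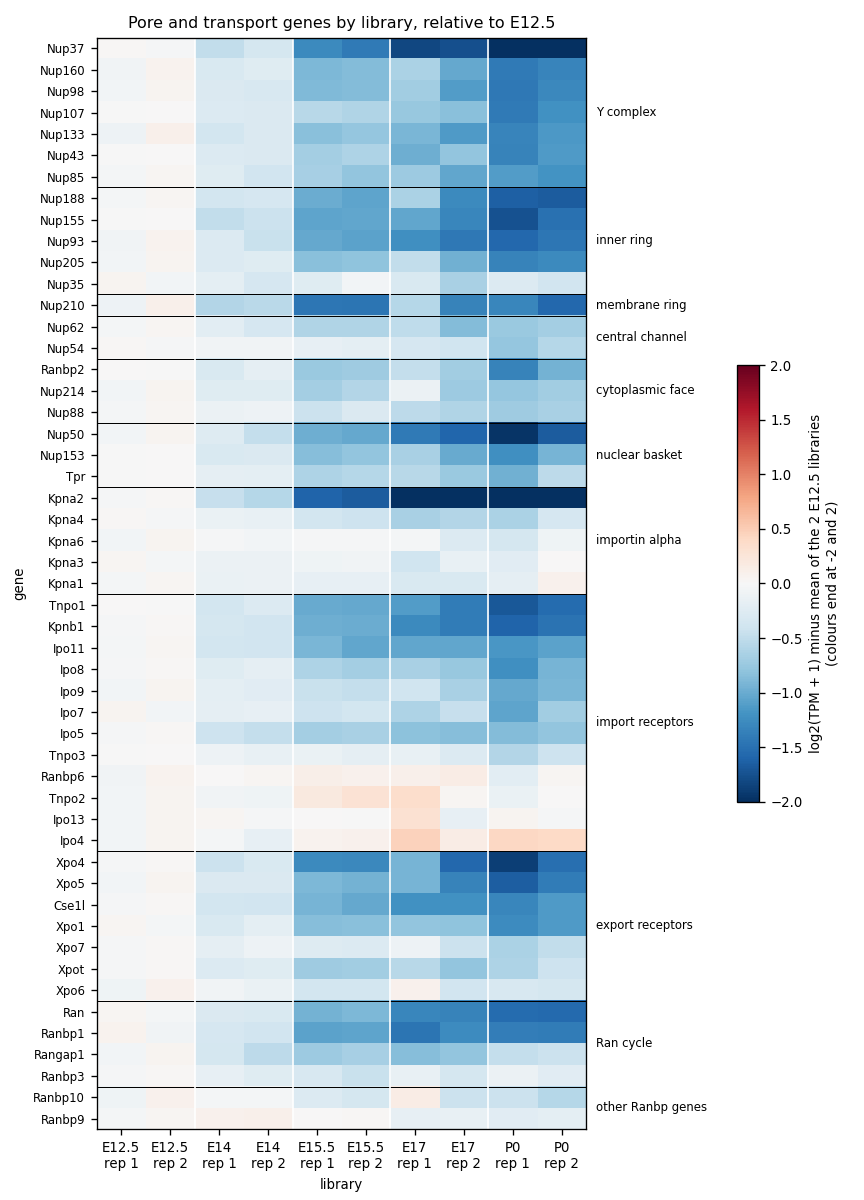
Level of each of the 51 genes (rows, grouped by role) in each of the 10 libraries (columns, 2 per stage), as log2(TPM + 1) minus the mean of the 2 E12.5 libraries, with blue for lower and red for higher. Most rows darken to blue from left to right, Kpna2 and Nup37 the most, while Kpna1, Kpna3, Tnpo2, Ipo13 and Ranbp6 stay near white and Ipo4 turns light red.

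Scaffold nucleoporins fell as a group. Nup98 is counted with the Y complex, the scaffold unit of the outer rings, being made as a joint precursor with subunit Nup96. All 7 Y complex members within the rule were called lower at P0, against 51% of all genes. Their median change was -1.32 and their summed level went from 195 ± 5.86 to 69.9 ± 3.46 TPM. Nup37, a peripheral subunit on chromosome 10 (88146992 to 88178390, plus strand, GRCm38), read 39.2 and 38.0 TPM at E12.5, 27.2 and 29.9 at E14, 15.4 and 13.8 at E15.5, 10.2 and 10.7 at E17, and 7.08 and 7.92 at P0. The libraries of each stage lay wholly below those of the stage before. Its change was -2.22 (SE 0.105, adjusted p = 3.53e-09), which left 19.4% of the E12.5 level. The other 6 lay close together, from -1.36 for Nup160 to -1.15 for Nup85 (adjusted p = 2.02e-06). Nup107 read 27.4 and 27.5 TPM at E12.5 and 9.65 and 11.3 TPM at P0, and Nup43 read 24.3 and 24.6 TPM and then 9.09 and 10.6 TPM. Neither gene's P0 libraries overlapped those of E12.5. The Y complex genes Seh1l and Sec13 lie outside the rule and are given below.

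Of the 5 inner ring genes, which form the scaffold next to the membrane, 4 fell by a similar amount. Nup188 changed by -1.65 (SE 0.165, adjusted p = 2.39e-06), Nup155 by -1.62, Nup93 by -1.51 and Nup205 by -1.30. Nup188, on chromosome 2 (30286397 to 30344266, plus strand), read 25.4 and 27.1 TPM at E12.5, 20.2 and 20.6 at E14, 12.6 and 12.2 at E15.5, 16.5 and 10.3 at E17, and 7.78 and 7.64 at P0. The 2 E17 libraries straddled the E15.5 level, and the P0 libraries were below every earlier library. Nup35, which ties the inner ring to the membrane, was the exception in this ring, at 13.1 ± 0.85 TPM (SD, n = 2) at E12.5 and 10.2 ± 0.58 TPM at P0. Its change of -0.33 (SE 0.135, adjusted p = 0.0432) was not called when any 1 library of E12.5, E14, E15.5 or P0 was left out (-0.39 to -0.26, adjusted p = 0.0581 to 0.203), and its sign turned with quantile normalization (0.11).

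Nup210, a transmembrane nucleoporin of the membrane ring that is used in only some cell types, showed another course. It read 20.1 and 23.2 TPM at E12.5, a mean of 14.3 ± 0.38 (SD, n = 2) at E14, 7.34 and 7.17 at E15.5, 14.2 and 7.98 at E17, and 8.16 and 6.59 at P0. Its E15.5 and P0 libraries were similar, and E17 replicate 1 stood at the E14 level. The difference between E17 replicates, 0.76 on the log2 scale, was the highest of the 51 genes. The change from E12.5 to P0 was -1.44 (SE 0.199, adjusted p = 3.84e-05).

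Genes of the channel and of the cytoplasmic face all fell, mostly with changes nearer to 0 than those of the scaffold, a difference that was not tested. The channel nucleoporins Nup62 and Nup54, which carry phenylalanine-glycine repeats, changed by -0.71 (SE 0.113, adjusted p = 0.000118) and -0.67 (SE 0.0974, adjusted p = 5.53e-05). Nup62 read 65.8 and 69.8 TPM at E12.5 and 40.0 and 42.0 TPM at P0. The remaining gene of that channel complex, Nup58, is listed under its older symbol Nupl1, outside the rule, and changed by -0.91 (adjusted p = 6.90e-05). On the cytoplasmic face, Ranbp2, a large filament protein that binds Ran and acts as a SUMO ligase, changed by -1.14 (SE 0.136, adjusted p = 1.06e-05), from 14.5 ± 0.21 TPM (SD, n = 2) to 6.09 ± 1.30 TPM. Nup214 and Nup88, which sit together at the base of the filaments, changed by -0.73 (SE 0.165, adjusted p = 0.00157) and -0.68 (SE 0.0892, adjusted p = 2.52e-05).

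The nuclear basket held a wide spread. Nup50, a mobile basket protein that binds importin alpha and helps release its cargo, lies on chromosome 15 (84923411 to 84942963, plus strand). It read 83.1 and 90.5 TPM at E12.5, 72.7 and 62.0 at E14, 43.7 and 42.0 at E15.5, 31.9 and 28.2 at E17, and 21.5 and 26.5 at P0. No library of a later stage overlapped one of an earlier stage, and the change was -1.82 (SE 0.118, adjusted p = 5.54e-08). Nup153, which anchors the basket, changed by -1.08, and Tpr, its main filament protein, by -0.74 (SE 0.135, adjusted p = 0.000337). Tpr differed between the P0 libraries, by 0.45 on the log2 scale around a mean of 17.2 TPM, more than any other member did at that stage, and both were below the 29.0 and 29.1 TPM of E12.5.

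**Figure D2:**
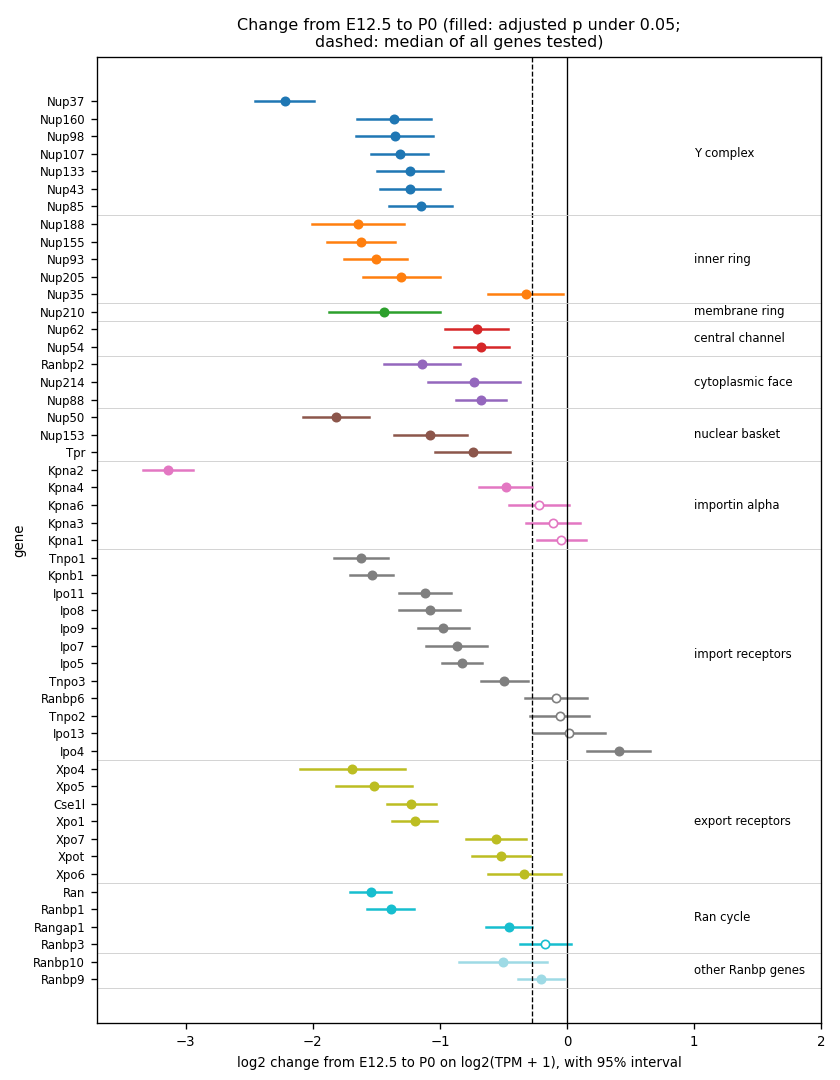
Change of each gene from E12.5 to P0 on the log2(TPM + 1) scale (points) with its 95% interval (bars), grouped by role; filled points passed an adjusted p of 0.05, and the dashed line is the median of all genes tested (-0.27). The changes run from -3.14 for Kpna2 to 0.41 for Ipo4, and the 7 open points are Kpna1, Kpna3, Kpna6, Ranbp6, Tnpo2, Ipo13 and Ranbp3.

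The importin alpha genes ran from the largest fall of the 51 genes to no call, with changes of -3.14 for Kpna2 to -0.05 for Kpna1. Importin alpha proteins read the classical nuclear localization signal of a cargo and hand it to importin beta, and their subtypes differ in the cargo they prefer. Kpna2 encodes the subtype known for its high level in pluripotent and dividing cells. It lies on chromosome 11 (106988629 to 106999541, minus strand, protein-coding). It read 135 and 140.0 TPM at E12.5, 99.0 and 92.4 at E14, 44.4 and 42.8 at E15.5, 21.0 and 21.3 at E17, and 13.7 and 15.8 at P0. Every stage lay below the one before with no overlap. The mean at E12.5 was 9.30 times the mean at P0, and the change of -3.14 (SE 0.0894, adjusted p = 7.04e-11) was the 114th lowest of the 6048 genes tested.

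Kpna1, Kpna3 and Kpna6 had no call between E12.5 and P0 with the values as deposited. Kpna1 read 83.5 and 87.6 TPM at E12.5, 77.9 and 78.8 at E14, 76.3 and 76.0 at E15.5, 69.4 and 68.7 at E17, and 75.8 and 90.4 at P0. Its change was -0.05 (95% interval -0.24 to 0.15, adjusted p = 0.641), and the sign turned with quantile normalization (0.070) and with median-of-ratios scaling, where it was called higher (0.23, adjusted p = 0.0308). Kpna3 read 126 and 119 TPM at E12.5, 113 and 113 at E14, 116 and 117 at E15.5, 93.3 and 110.2 at E17, and 105 and 123 at P0, so the P0 libraries overlapped those of E12.5. Its change was -0.11 (95% interval -0.32 to 0.11, adjusted p = 0.319), or 0.17 with median-of-ratios scaling. Kpna6 read 57.2 and 62.1 TPM at E12.5 and 46.3 and 56.0 TPM at P0, with a change of -0.22 (95% interval -0.46 to 0.01, adjusted p = 0.0776), or 0.048 with median-of-ratios scaling. Of 22 alternatives, 7 called Kpna6 lower, namely array weights, only the 4 libraries of the pair, the length and GC correction, and leaving out E17 replicate 1, E17 replicate 2, both of them or P0 replicate 2 (-0.36 to -0.22, adjusted p = 0.0176 to 0.0353). Kpna4 fell from 105 and 103 TPM to 66.4 and 82.5 TPM, a change of -0.48 (SE 0.0964, adjusted p = 0.000672) that missed the threshold with median-of-ratios scaling (-0.21, adjusted p = 0.073).

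The make-up of the importin alpha pool differed between the stages. TPM are corrected for gene length, so levels of different genes are set side by side here. The gene lengths used for that correction were not given in the sources used here. Kpna2 made up 27.0 ± 0.55% (SD, n = 2) of the summed TPM of the 5 genes at E12.5, more than any other. Its mean share was 21.8% in the E14 pair, 11.6% in the E15.5 pair, 6.77% in the E17 pair and 4.38 ± 0.13% in the P0 pair, then the lowest of the 5. Kpna3 went from 24.1% to 33.8%, Kpna1 from 16.8% to 24.6% and Kpna6 from 11.7% to 15.1%, while Kpna4 stood at 20.4% and 22.0%. The ratio of Kpna2 to Kpna1 was 1.61 and 1.60 in the E12.5 libraries and 0.181 and 0.175 in the P0 libraries. The summed level of the 5 genes went from 509 ± 3.61 to 337 ± 43.0 TPM. Kpna2 has near-identical copies elsewhere in the genome. At least 90% identity over 200 bases or more was found to transcripts of 13 other genes, 11 of them processed pseudogenes, and the gene Gm10184 matched at 99.9% over 1968 of 2054 bases. How reads that fit several copies were counted was not given in the sources used here, so the level of Kpna2 is uncertain to that extent. Matches at that cutoff were found for 13 of the 51 members, among them Ran (3 other genes), Ranbp2 (11) and Nup35 (1, at 99.6% identity). The same uncertainty holds for these. Some matches were short, at most 387 of 9608 bases for Ranbp2 and 213 of 15121 bases for Xpo7.

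**Figure D3:**
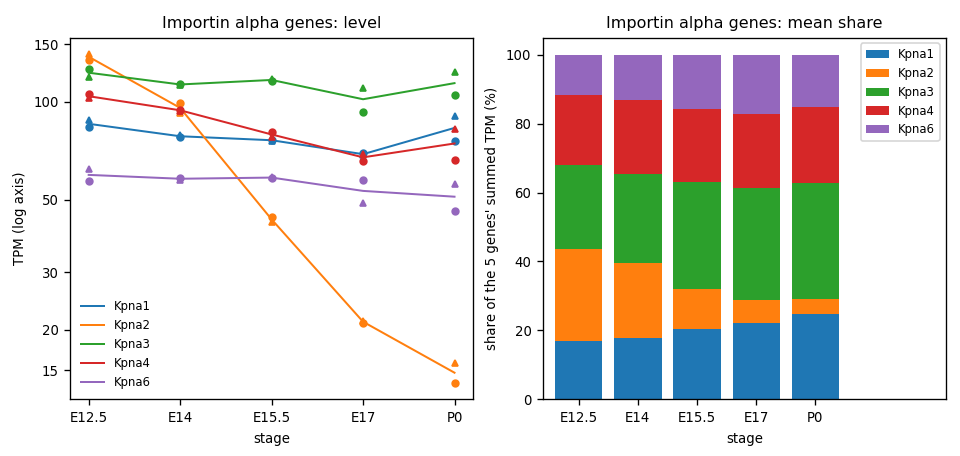
Left, TPM of the 5 importin alpha genes at each stage on a log axis, with circles for replicate 1, triangles for replicate 2 and lines through the means; right, mean share of each gene in their summed TPM (n = 2 per stage). Kpna2 falls from the highest line to the lowest, and its share from 27.0% to 4.38%.

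The bases before the Kpna2 start in RefSeq (GRCm38.p6, chr11:106999542-106999775, minus strand) are shown because Kpna2 had the lowest change of the set. Capitals mark TTCAAA, the reverse complement of the cell cycle homology element TTTGAA known from genes of mitosis, which begins 35 bases before the RefSeq start, and the CCAAT box 25 bases before it. The stretch shown holds the first 234 of the 250 bases of the window and ends at the most upstream start in GENCODE M21, short of the RefSeq start from which positions are counted.
Kpna2: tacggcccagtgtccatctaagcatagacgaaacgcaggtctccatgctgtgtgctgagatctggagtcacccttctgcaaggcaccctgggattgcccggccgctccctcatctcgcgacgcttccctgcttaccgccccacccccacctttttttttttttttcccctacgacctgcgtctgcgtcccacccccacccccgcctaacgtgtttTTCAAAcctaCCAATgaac

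Among the import receptors of the importin beta family, 8 of 12 fell, 1 rose and 3 had no call. Over all genes, 51% were called lower and 27.1% higher. The share of import receptors called in either direction was near the 78.2% of all genes. Kpnb1 encodes importin beta itself, which carries importin alpha with its cargo through the pore. It lies on chromosome 11 (97159714 to 97187881, minus strand). It read 312 and 321 TPM at E12.5, 248 and 242 at E14, 161 and 159 at E15.5, 130.0 and 119 at E17, and 103 and 114 at P0. No stage overlapped the one before, and the change was -1.54 (SE 0.0763, adjusted p = 5.16e-09). The 250 bases before its RefSeq start (GRCm38.p6, chr11:97187893-97188142, minus strand) are given for comparison with Kpna2. Capitals mark 3 CCAAT boxes, the outer 2 of which begin 195 and 122 bases before the start.
Kpnb1: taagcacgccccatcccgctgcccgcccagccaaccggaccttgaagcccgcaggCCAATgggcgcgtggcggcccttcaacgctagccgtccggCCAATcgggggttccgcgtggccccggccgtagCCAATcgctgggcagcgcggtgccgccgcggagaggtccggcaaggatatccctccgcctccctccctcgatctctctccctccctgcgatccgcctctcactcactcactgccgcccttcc

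The transportins Tnpo1 and Tnpo2 are close paralogs that import RNA-binding proteins without an adaptor. Tnpo1 fell, and Tnpo2 had no call. Tnpo1 (chromosome 13, 98839019 to 98926384, minus strand) read 192 and 190.1 TPM at E12.5, 147 and 157 at E14, 94.8 and 93.4 at E15.5, 87.4 and 71.4 at E17, and 57.9 and 65.0 at P0. Its log2 change was -1.62 (SE 0.0983, adjusted p = 3.01e-08), with no overlap between neighbouring stages. Tnpo2 (chromosome 8, 85036915 to 85057583, plus strand) read 107 and 116 TPM at E12.5, 106 and 104 at E14, 127 and 136 at E15.5, 143 and 114 at E17, and 102 and 113 at P0. It was highest in the middle stages, and its P0 and E12.5 libraries overlapped, with a change of -0.06 (95% interval -0.29 to 0.17, adjusted p = 0.619) that was 0.025 with quantile normalization and 0.22 with median-of-ratios scaling. That last setting called Tnpo2 higher (adjusted p = 0.0382), and the length and GC correction called it lower (-0.19, adjusted p = 0.0354). The ratio of Tnpo1 to Tnpo2 went from 1.79 and 1.63 at E12.5 to 0.570 and 0.577 at P0. Whether the change of Tnpo1 differed from that of Tnpo2 was not tested. Tnpo3, which imports SR splicing factors, changed by -0.50.

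Ipo4, an importin of histones and ribosomal proteins, was the 1 member that rose from E12.5 to P0. It read 21.6 and 23.2 TPM at E12.5, 21.7 and 19.8 at E14, 23.5 and 23.8 at E15.5, 31.0 and 24.9 at E17, and 30.1 and 29.8 at P0. Both P0 libraries were above every library up to E15.5. The change was 0.41 (SE 0.112, adjusted p = 0.00593). Over the alternatives it ran from 0.25 to 0.69, and without E12.5 replicate 1 it missed the threshold (0.36, adjusted p = 0.0516). In GENCODE M21, 55.3% of the exon length of Ipo4 is shared with the gene Gm49378 on the same strand, and how reads in that stretch were assigned was not given in the sources used here.

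Ipo13, which both imports and exports, was level, at 31.2 and 33.6 TPM at E12.5 and 33.5 and 32.0 TPM at P0, a change of 0.015 (95% interval -0.27 to 0.30, adjusted p = 0.921). It was called higher with quantile normalization (0.29, adjusted p = 0.0133) and with median-of-ratios scaling (0.28, adjusted p = 0.0242), and lay at -0.16 after a correction for gene length and GC content. Ranbp6, an intronless relative of Ipo5, read 12.8 and 14.2 TPM at E12.5 and 11.5 and 13.8 TPM at P0, a change of -0.09 (95% interval -0.33 to 0.15, adjusted p = 0.476). It was 0.31 (adjusted p = 0.0164) with quantile normalization and 0.17 with median-of-ratios scaling. The other 5 import receptors called lower were Ipo11 (-1.12), Ipo8 (-1.08), Ipo9 (-0.97), Ipo7 (-0.87) and Ipo5 (-0.83, SE 0.0718, adjusted p = 6.91e-07). Ipo5 read 145 and 152 TPM at E12.5, 83.9 and 82.2 at E17 and 81.1 and 85.6 at P0, so its E17 and P0 libraries overlapped. The close paralogs Ipo7 and Ipo8 kept a ratio of 2.80 to 3.70 in all 10 libraries.

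Every export receptor in the table was called lower at P0, 7 of 7, against 51% of all genes, but by very different amounts. Xpo1, which exports proteins with leucine-rich signals as well as ribosomal subunits, lies on chromosome 11 (23256041 to 23298249, plus strand). It read 101 and 96.8 TPM at E12.5, 79.7 and 86.7 at E14, 54.6 and 55.2 at E15.5, 57.0 and 56.4 at E17, and 40.8 and 44.4 at P0. Its 4 libraries of E15.5 and E17 lay within 54.6 to 57.0 TPM, and the change from E12.5 to P0 was -1.20 (SE 0.0807, adjusted p = 7.34e-08). Cse1l, which returns importin alpha to the cytoplasm, read 65.9 and 67.6 TPM at E12.5, 51.7 and 51.2 at E14, 34.4 and 32.5 at E15.5, 28.4 and 28.3 at E17, and 26.3 and 29.8 at P0. Its E17 and P0 libraries overlapped, and the change from E12.5 to P0 was -1.23 (SE 0.0881, adjusted p = 1.31e-07).

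Xpo4 had the lowest change among the exportins, -1.69 (SE 0.188, adjusted p = 5.85e-06), at low levels of 13.4 and 13.7 TPM at E12.5 and 2.96 and 4.14 TPM at P0. With a pseudocount of 10 TPM its change was -0.80. Xpo5, the exporter of microRNA precursors, changed by -1.52, from 33.5 and 36.0 TPM to 10.5 and 12.6 TPM. Xpo7 and Xpot, the exporter of transfer RNA, changed by -0.56 and -0.52. Xpo6, which exports actin with profilin, read 45.7 and 51.4 TPM at E12.5, 51.7 and 37.0 at E17, and 38.5 and 37.9 at P0. Its change of -0.34 (SE 0.131, adjusted p = 0.0345) missed the threshold without any 1 library of E14, E15.5 or P0, or without E12.5 replicate 2 (adjusted p = 0.0506 to 0.2). It was -0.10 with quantile normalization and -0.07 with median-of-ratios scaling.

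Ran was the most abundant member at every stage. The gene lies on chromosome 5 (129020069 to 129024323, plus strand). It read 1226 and 1161 TPM at E12.5, 972 and 962 at E14, 616 and 639.9 at E15.5, 484 and 474 at E17, and 409 and 406 at P0. No stage overlapped the one before, and the change was -1.55 (SE 0.0734, adjusted p = 3.59e-09), which left 34.2% of the E12.5 level. Kpnb1, which Ran-GTP releases from its cargo, was likewise at 34.2%. The ratio of Ran to Kpnb1 lay between 3.57 and 4.04 in all 10 libraries, with a mean of 3.77 at E12.5 and 3.77 at P0.

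The regulators of the Ran cycle ranged from a fall close to that of Ran to no call. Ranbp1, which helps RanGAP act on Ran-GTP in the cytoplasm, went from 467 and 426 TPM to 170.3 and 169 TPM, a change of -1.39 (SE 0.083, adjusted p = 2.66e-08). Rangap1, which makes Ran hydrolyse its GTP, read 147 and 159 TPM at E12.5, 120.1 and 107 at E14, 92.2 and 96.4 at E15.5, 83.9 and 88.4 at E17, and 109 and 114 at P0. It was lowest at E17 and higher again at P0. Its change over the whole span was -0.45 (SE 0.0821, adjusted p = 0.000319), or -0.18 (adjusted p = 0.0931) with median-of-ratios scaling. The ratio of Ran to Rangap1 was 8.32 and 7.31 at E12.5 and 3.75 and 3.58 at P0. Ranbp3, a cofactor of Xpo1, had no call, at 73.1 and 76.3 TPM at E12.5 and 69.1 and 63.5 TPM at P0 (-0.17, 95% interval -0.37 to 0.03, adjusted p = 0.108), and was 0.10 with median-of-ratios scaling. It was called lower without either E17 library (adjusted p = 0.0379) or both (adjusted p = 0.0377), and with the length and GC correction (-0.26, adjusted p = 0.00467).

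Ranbp9 and Ranbp10, which share the prefix but are scaffold proteins of a ubiquitin ligase complex, had changes nearer to 0 than the median of the 51 genes. Ranbp9 changed by -0.21 (SE 0.0822, adjusted p = 0.0361). That call was lost without any 1 library of E12.5, E14 or E15.5, or without P0 replicate 1 (adjusted p = 0.061 to 0.187), with the replicate number as a block (adjusted p = 0.0573) and with only the 4 libraries of the pair (adjusted p = 0.0516), and the change was 0.062 with quantile normalization and 0.060 with median-of-ratios scaling. Ranbp10 changed by -0.50 (SE 0.156, adjusted p = 0.0113). It missed the threshold without E12.5 replicate 2 (-0.42, adjusted p = 0.0866) or P0 replicate 2 (-0.44, adjusted p = 0.0843), with quantile normalization (-0.21, adjusted p = 0.112) and with median-of-ratios scaling (-0.24, adjusted p = 0.107).

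**Figure D4:**
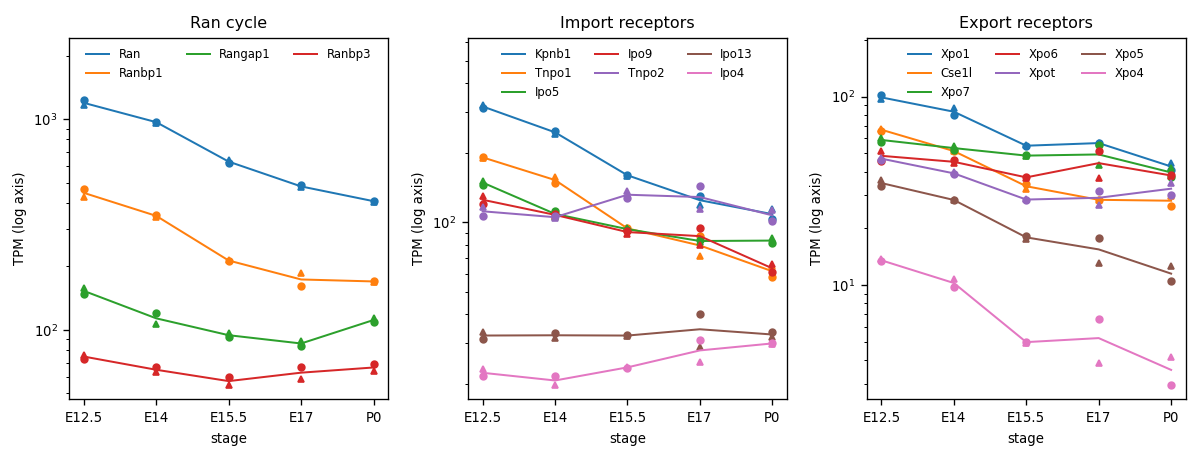
TPM at each stage, on log axes that differ between panels, of the 4 Ran cycle genes (left), 7 of the 12 import receptors (middle) and the 7 export receptors (right), with circles for replicate 1, triangles for replicate 2 and lines through the means. Ran and Kpnb1 fall along similar lines to 34.2% of their E12.5 level, Rangap1 turns up after E17, and Tnpo1 crosses below Tnpo2 between E14 and E15.5.

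With the values as deposited, the median change was not the same at each of the 4 steps between neighbouring stages. The median change of the 51 genes was -0.27 at the first step (to E14), -0.41 at the second (to E15.5), -0.13 at the next (to E17) and -0.25 at the last (to P0), against -0.06, -0.13, 0.01 and -0.10 for all genes tested. The contrast between steps depended on the scaling. With quantile normalization the medians of the 51 genes at the 4 steps were -0.23, -0.26, -0.16 and -0.077. With median-of-ratios scaling they were -0.21, -0.29, -0.14 and -0.15. Differences between steps were not tested. Of the 43 genes called lower at P0 than at E12.5, 29 (67.4%) had their lowest step between E14 and E15.5, against 52.6% of all genes called lower. The mean fell at every step for 25 of 51 genes (49%), against 21.4% of all genes tested. Over the 5 stages together, 46 of 51 passed the moderated F test, against 82.9% of all genes. Xpo6, called lower from E12.5 to P0, did not pass this F test (adjusted p = 0.0841).

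From E12.5 to E14, 10 genes were called lower and 0 higher, against 4.78% and 3.95% of all genes, 8.73% in either direction. These were Ipo5, Kpna2, Rangap1, Kpnb1, Ranbp1, Cse1l, Ran, Ipo11, Nup37 and Nup155. Kpna2 changed by -0.52 (adjusted p = 0.00638) and Nup155 by -0.46 (adjusted p = 0.0389). At an unadjusted p under 0.05, 24 were lower and 0 higher. Both E14 libraries lay below both E12.5 libraries for 44 of 51 genes, against 45.4% of all genes, and above them for 1, against 24.7%. At an adjusted p under 0.01 the count was 2, against 2.51% of all genes. The count rests on the libraries used. Kpna2 missed the threshold without any 1 of the 4 libraries of these stages (adjusted p = 0.0509 to 0.0941), as did Nup155 (adjusted p = 0.177 to 0.243), which also missed it without either E15.5 library (adjusted p = 0.0821 and 0.0822). The count was 0 without E12.5 replicate 1, E12.5 replicate 2 or E14 replicate 2, 2 without E14 replicate 1, 4 without either E15.5 library and 32 without either E17 library. The share of all genes called moved with it, to 1.07% to 1.7% without 1 library of E12.5 or E14, 4.96% without either E15.5 library and 29.2% without either E17 library.

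From E14 to E15.5, 33 genes were called lower and 1 higher, against 33.3% and 18.4% of all genes, 51.7% in either direction. The largest falls were those of Kpna2 (-1.12, SE 0.0894, adjusted p = 1.87e-06) and Nup37 (-0.92, SE 0.105, adjusted p = 2.58e-05). All 7 Y complex members, 4 of 5 inner ring members and all 3 basket members were among the genes called lower. Both E15.5 libraries lay below both E14 libraries for 43 of 51 genes, against 56.1% of all, and above them for 5, against 31.6%. Tnpo2 rose by 0.32 (SE 0.104, adjusted p = 0.0242), but missed the threshold without either E14 library or either E15.5 library (0.27 to 0.37, adjusted p = 0.0578 to 0.151). Without E15.5 replicate 2 the count was 22, all lower, and 35% of all genes were called. The summed erythroid, choroid plexus and meningeal genes in the table went to low levels at this same step. Most of the erythroid sum was the globin gene Hbb-y, at 1951 and 1863 TPM at E14 and 8.15 and 8.79 TPM at E15.5. The amount of blood in the tissue was not measured. Summed erythroid genes went from 1975 and 1880.3 to 9.26 and 9.84 TPM, choroid plexus genes from 1405 and 1517 to 3.46 and 4.25 TPM, and meningeal genes from 111 and 106 to 3.03 and 2.80 TPM. Summed proliferation genes went from 1986 and 1906 to 877 and 845 TPM. Their part in the changes of the pore and transport genes was not tested.

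From E15.5 to E17, 6 genes were called lower and 0 higher, against 10.6% and 14.4% of all genes, 25% in either direction. The share of members called lower, 11.8%, was near that of all genes. They were Kpna2 (-1.01, SE 0.0894, adjusted p = 0.000103), Nup50 (-0.50, SE 0.118, adjusted p = 0.0117), Nup37, Ran, Kpnb1 and Ranbp1. The change of Kpna2 was the 3rd lowest of all 6048 genes tested at this step. At an unadjusted p under 0.05, 13 were lower and 1 higher. Both E17 libraries lay below both E15.5 libraries for 23 of 51 genes, against 29.7% of all, and above them for 4, against 30.7%. At an adjusted p under 0.01 the count was 3, against 10.5% of all genes. The call of Nup50 was lost without E15.5 replicate 1 (adjusted p = 0.095) or replicate 2 (adjusted p = 0.0658). The count was 2 without either E15.5 library, 12 without E17 replicate 1, and 19 without E17 replicate 2, then with 10 higher and 9 lower. The share of all genes called was then 7.71% and 8.52%, 29.6%, and 52.3%.

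From E17 to P0, 21 genes were called lower and 2 higher, against 28.8% and 12.9% of all genes, 41.7% in either direction. Nup188 (-0.69, SE 0.165, adjusted p = 0.0072) and Nup205 (-0.57, SE 0.139, adjusted p = 0.00764) fell the most. Without E17 replicate 1, Nup188 stood at -0.37 and Nup205 at -0.33, and Nup205 missed the threshold without P0 replicate 1 (adjusted p = 0.0539). Rangap1 rose by 0.37 (SE 0.0821, adjusted p = 0.00512), and both P0 libraries were above both E17 libraries. Kpna1 rose by 0.26 (SE 0.0881, adjusted p = 0.036), but that call was lost without any 1 library of E12.5, E14 or E15.5, and without P0 replicate 2 the change was 0.13 (adjusted p = 0.204). Both P0 libraries lay below both E17 libraries for 31 of 51 genes, against 39.9% of all, and above them for 2, against 22%. At an adjusted p under 0.01 the count was 10, against 23.5% of all genes. The count was 36 without E17 replicate 2, where 62.3% of all genes were called, and 8 without P0 replicate 1, where 27.1% were. With quantile normalization the split was 5 higher and 8 lower, where 40.4% of all genes were called in either direction. The median of the members was then -0.077, against 0.018 for all genes.

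**Figure D5:**
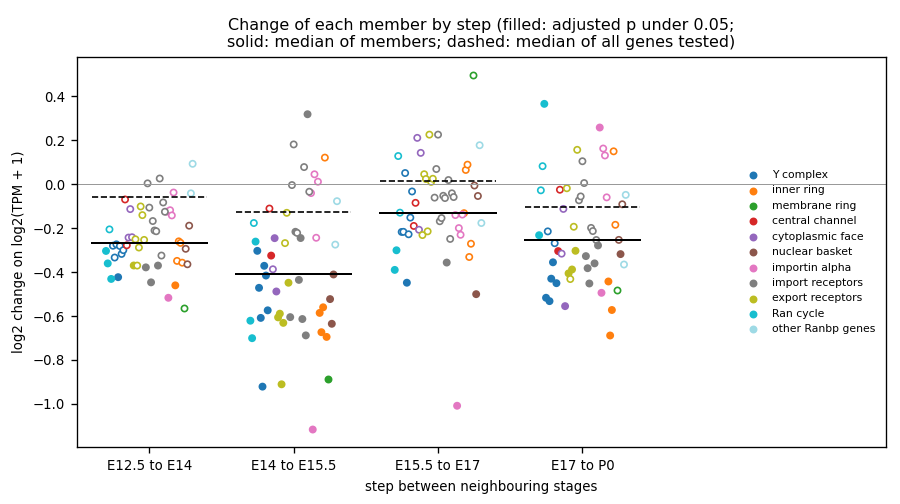
Change of each of the 51 genes at each step between neighbouring stages on the log2(TPM + 1) scale, coloured by role; filled points passed an adjusted p of 0.05, solid bars are the medians of the 51 genes and dashed bars those of all genes tested. The step from E14 to E15.5 has the lowest median (-0.41) and the most filled points (34), and Kpna2 is the lowest point at the 2 middle steps.

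Members were also compared by the sequence before their starts, whatever their change between stages. A window from the RefSeq promoter table (GRCm38.p6) was found for 40 of the 51 genes, 47 windows in all, and the 250 bases before each start were searched on both strands for 13 strings. The palindrome CGCATGCG, the core of the binding sequence known for NRF1, was in 5 of 47 windows (10.6%), against 3.68% of the windows of all listed genes and 1.55% of all 32851 windows. No other string searched overlaps it in full. The 5 genes were Nup107, Nup50, Nup62, Ran and Xpo5, whose changes from E12.5 to P0 were -1.32, -1.82, -0.71, -1.55 and -1.52. Whether the string went with the change was not tested. The bases around the palindrome, in capitals, are shown 5′ to 3′. They lie at chr10:117792742-117792789 (minus strand), chr15:84923242-84923289, chr7:44816049-44816087, chr5:129019932-129019979 and chr17:46202707-46202757 (plus strand).
Nup107: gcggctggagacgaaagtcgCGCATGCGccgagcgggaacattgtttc
Nup50: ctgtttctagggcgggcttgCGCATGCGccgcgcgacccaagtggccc
Nup62: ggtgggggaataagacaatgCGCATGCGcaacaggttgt
Ran: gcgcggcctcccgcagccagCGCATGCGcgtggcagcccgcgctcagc
Xpo5: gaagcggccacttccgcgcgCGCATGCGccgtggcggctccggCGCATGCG

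The palindrome began 64 bases before the start in Nup107, 166 and 104 in Nup50, 19 in Nup62, 204 in Ran, and 84 and 61 in Xpo5. The stretch shown for Nup50 holds the copy at 166. Several of the other strings were also in a larger share of these windows than of those of listed genes. CACGCG, another string known for NRF1, was in 27.7% against 15.6%, and CCAAT in 44.7% against 34.4%. TTTGAA was in 19.1% against 10.1%, and the E-box CACGTG in 17% against 8.63%. Of all 32851 windows, 7.62% held CACGCG, 33.8% CCAAT, 16% TTTGAA and 6.02% CACGTG, so TTTGAA was nearer to that background. The E2F string TTTCCCGC was in 4.26% against 1.86%, and the GC box GGGCGG in 63.8% against 60.7%. Of the other E2F forms searched, GGCGGGAA was in 4.26% against 3.65%. TTTGGCGC, TTTCGCGC and TTTGCCGC were in 0 of the 47 windows, against 0.752%, 0.672% and 0.464%. None of these differences was tested. These are matches of letters, and binding was not measured here.

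Other genes that work with the pore and with Ran, from a list outside the naming rule, mostly moved in the same direction. The list was chosen with earlier results of these data known, so it is not independent of them. Of 14 in the table, 12 were called lower at P0 and 0 higher, also 12 and 0 at an unadjusted p under 0.05 (limma), with a median of -1.04, against 51% lower and 27.1% higher over all genes. Rcc1, the exchange factor that loads Ran with GTP on chromatin, fell from a mean of 92.3 to 22.1 TPM (-2.02, SE 0.124, adjusted p = 3.36e-08), the largest fall in the list. Its relative Rcc2 changed by -1.90, Pom121, a transmembrane nucleoporin, by -1.69, and Nutf2, which carries Ran-GDP into the nucleus, by -1.37. Ahctf1, which seeds pores on chromatin after mitosis, changed by -1.24, and Seh1l of the Y complex by -1.16. Sec13, also of the Y complex, read 126 and 134 TPM at E12.5 and 87.8 and 97.0 TPM at P0. The mRNA export factors Gle1 (0.16, adjusted p = 0.0957) and Rae1 (0.14, adjusted p = 0.15) had no call.

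Genes of mRNA export and of SUMO conjugation had medians nearer to 0. Of 15 tested mRNA export genes, 13 were called lower and 0 higher, the same numbers as at an unadjusted p under 0.05 (limma), with a median of -0.67. Over all genes 78.2% were called in either direction, 51% lower. Thoc6 of the THO complex had the largest fall (-1.31, SE 0.101, adjusted p = 2.54e-07), and Nxf1, the main mRNA export receptor, went from a mean of 71.8 to 49.9 TPM (-0.52, adjusted p = 0.000611). Thoc5 (-0.10, adjusted p = 0.293) and Eny2 (0.18, adjusted p = 0.101) had no call. Of 8 SUMO pathway genes, 6 were called lower and 0 higher, again as at an unadjusted p, with a median of -0.59. The share of SUMO genes called was near that of all genes. Sae1, a subunit of the SUMO-activating enzyme, had the largest fall (-1.11, SE 0.0683, adjusted p = 3.53e-08). The proliferation genes, by comparison, had a median of -3.86, and Bub1b, a mitotic checkpoint kinase, fell from a mean of 51.7 to 1.49 TPM. Of the 51 pore and transport genes, the one nearest to that median was Kpna2 (-3.14).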

How the data were processed

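RNA from mouse neocortex at 5 stages was sequenced by the authors from libraries of polyadenylated RNA (TruSeq Stranded mRNA kit), after tissue was lysed with detergent and the lysate cleared, per the labels' protocols. The table deposited by the authors holds TPM in 10 columns, 1 for each library, per the file headers. STAR, Subread and the build GRCm38.p5 are named in the submitters' processing notes, and the annotation, gene lengths, strand setting and handling of reads with several matches were not given in the sources used here.

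Values were analysed as log2(TPM + 1) for the 6048 of 6147 genes whose mean reached 1 TPM, so fold changes understate those of low genes. limma 3.58.1 (R 4.3.3) fitted 5 stage means over 10 libraries with 5 residual degrees of freedom and a variance trend, and p-values were adjusted over all genes (Benjamini-Hochberg, under 0.05). The fit was also run on simulated data in which each gene had the same spread at every stage. That simulation cannot test the wider spread at E17, and its outcome is not given here. The median SE of a change from E12.5 to P0 was 0.107. The members and gene lists were chosen with earlier results of these data known. Any member could be named. Full statistics went to the highest and lowest change of each role, the 10 largest falls and 5 largest rises, the 2 largest of each at each step, all Kpna genes, Kpnb1, Ran, Xpo1 and Cse1l, and outside the members to each list's largest changes. Positions came from GENCODE M21 (GRCm38), copies from BLAST 2.17.0, and promoter windows from RefSeq (GRCm38.p6). Alternatives covered the pseudocount (0.1 or 10 TPM), filter (none or 5 TPM), scaling, variance trend, library weights, replicate block, threshold (0.01), the libraries fitted and each library left out. Leaving out both E17 libraries and correcting for length and GC content were added after seeing the data.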

Additional observations from a re-analysis of the deposited data

How the results depend on the processing

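The counts over the 5 stages (46; 39 to 48 with 1 library left out) and from E12.5 to P0 (44; 40 to 46) stayed within 1.5 times under every alternative run. Counts at single steps did not, and the cause was not tested. From E12.5 to E14 the count of 10 was 36 with array weights, 36 with only the 4 libraries of the pair, 2 at an adjusted p under 0.01, 32 without both E17 libraries, 16 with the length and GC correction, and 0 to 32 with 1 library left out. From E14 to E15.5 the count of 34 was 22 to 41 with 1 library left out. From E15.5 to E17 the count of 6 was 15 with quantile normalization, 10 with median-of-ratios scaling, 3 with array weights, 1 with only the 4 libraries, 3 at an adjusted p under 0.01, and 2 to 19 with 1 library left out. From E17 to P0 the count of 23 was 13, 4, 2 and 10 with quantile normalization, array weights, only the 4 libraries and an adjusted p under 0.01, and 8 to 36 with 1 library left out.

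Members with small changes from E12.5 to P0 changed sign. With quantile normalization these were Kpna1 (0.070), Nup35 (0.11), Ranbp6 (0.31), Ranbp9 (0.062) and Tnpo2 (0.025). With median-of-ratios scaling they were Kpna1 (0.23), Kpna3 (0.17), Kpna6 (0.048), Ranbp3 (0.10), Ranbp6 (0.17), Ranbp9 (0.060) and Tnpo2 (0.22). With the length and GC correction they were Ipo13 (-0.16), Kpna1 (0.087), Kpna3 (0.12) and Ranbp6 (0.11). With 1 library left out, Ipo13 ranged from -0.036 to 0.066, Kpna1 from -0.17 to 0.079, Kpna3 from -0.22 to 0.0055, Ranbp6 from -0.21 to 0.032 and Tnpo2 from -0.13 to 0.015.

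Replicates share the numbers 1 and 2, but same-numbered libraries did not deviate together (correlations of -0.37 to 0.11 over the pairs of stages), so the numbers were not taken to pair them. With the replicate number as a block the counts were 44 over the 5 stages, 8, 32, 6 and 20 for the 4 steps and 43 from E12.5 to P0. The shares of all genes called were 81.5% over the 5 stages, 7.64%, 49.7%, 23.3% and 39.2% for the 4 steps and 77.3% from E12.5 to P0.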
